A study of Rattus norvegicus with 6 samples.

Results

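The genes described here encode secreted glycoproteins of the extracellular matrix: 4 thrombospondins (Thbs1, Thbs2, Thbs3 and Comp), tenascin-C (Tnc), periostin (Postn), SPARC (Sparc), fibronectin (Fn1), elastin (Eln) and the matrix-associated protein Ccdc80. They are 10 of the 23091 genes in the deposited table. They were chosen by symbol, as a family, with earlier results on the same samples known, so their changes and tests describe these genes and support no statement about the family as a whole. Among several identifiers of a symbol, the one with the largest count summed over the 6 samples was to be taken, but each of the 10 symbols stood on 1 identifier. The RNA came from wild-type rat mesenchymal stem cells of marrow, which are adherent stromal cells, held in neural differentiation medium for 7 days. In 3 samples, named CK, the medium contained DMSO, the solvent. In the other 3, named CYSP, it contained CYSP, a treatment that the labels do not spell out. The series asks how expression changes when such cells are driven towards neurons. Nothing in the labels says whether replicates came from separate cultures or animals, so p-values rest only on how far these samples vary, and that variation may be technical. The labels name no passage, donor or clone.

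Adhesive and matricellular glycoproteins lie between cells and the collagen network. Fibronectin and elastin are built into fibres. Thrombospondins, tenascin-C, periostin and SPARC bind collagens, growth factors and cell surface receptors and tune how firmly cells attach, rather than giving the matrix its bulk. In connective tissue several of these genes, among them Thbs1, Tnc and Postn, are known to be raised in healing wounds and in activated, contractile fibroblasts.

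In CYSP 7 of the 10 genes fell, 2 rose and Thbs3 did not pass the test. Ccdc80 and Thbs1, both abundant in CK, fell 41.9-fold and 17.7-fold. Fn1 rose 2.79-fold, and Comp rose from near the counting limit to 9.32 ± 2.11 CPM (mean ± SD, n = 3). CPM is the count scaled to the library total, here after TMM (trimmed mean of M-values) scaling, which corrects for differences in library composition. The test was the quasi-likelihood test of edgeR, with p-values adjusted by Benjamini and Hochberg's method over 12623 tested genes and a threshold of 0.05. By it 76.1% of all tested genes were called, 38.2% as higher and 37.8% as lower, so a call by itself does not set these genes apart. With a log2 fold change of at least 1 in size required as well, 2 of the 10 genes were higher and 5 lower, against 15.2% and 12.7% of all tested genes. All 10 were tested. Comp passed the count filter only through CYSP and Eln only through CK, so for these genes a difference was built into being tested. The counts of risen, fallen and non-overlapping genes given here include both. The groups did not overlap for 9 of the 10 genes, against 77% of all tested genes. The median log2 fold change was -1.11 over the 10 genes and 0.0046 over all tested genes.

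**Figure D1:**
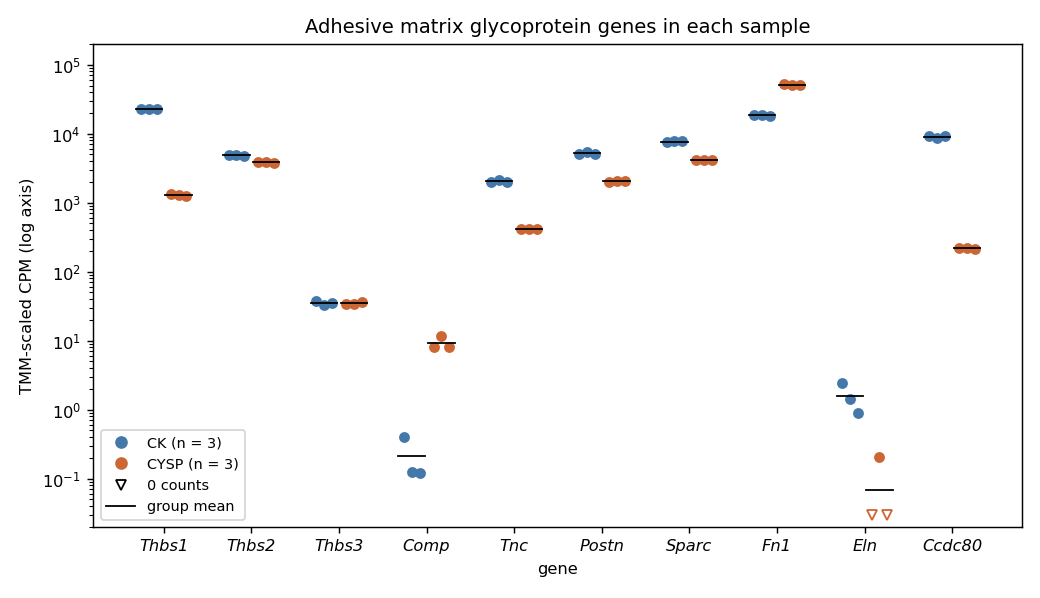
TMM-scaled CPM on a log axis for each of the 10 genes, with a point for each sample, CK in blue and CYSP in orange, a line at the group mean and open triangles at the bottom for samples with 0 counts. The Ccdc80 points lie between 8780 and 9358 CPM in CK and between 214.7 and 221.1 CPM in CYSP, while the groups overlap for Thbs3.

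Total counts were 15060933 to 17244700 per sample. A count of 0 allows up to 3 counts, which stood for 0.169 to 0.205 CPM. Across genes, which are not independent replicates, Pearson's r of log2(CPM + 1) was 0.995 to 0.996 within groups and 0.849 to 0.852 between them. The common coefficient of variation estimated by edgeR was 0.0393. The stromal markers Thy1, Cd44 and Pdgfrb were present in both groups (562 ± 6.78, 338 ± 8.59 and 623.5 ± 17.1 CPM in CK, and 661 ± 23.2, 686 ± 4.6 and 269 ± 9.38 CPM in CYSP), whereas Lepr, which marks stromal cells of the marrow itself, was near 1 CPM or lower (0.776 ± 0.173 and 0.833 ± 0.273 CPM). Eng and Nt5e, also stromal markers, stood at 22.4 ± 2.38 and 10.7 ± 0.397 CPM in CK. In CYSP they stood at 35 ± 1.18 and 19.7 ± 1.25 CPM. The leukocyte marker Ptprc was also detected, at 62.4 ± 4.06 CPM in CK and 21.8 ± 2.63 CPM in CYSP. The 8 listed macrophage and leukocyte markers summed to 1672 to 1896 CPM in CK and 500.3 to 507 CPM in CYSP. The 6 stromal markers summed to 1542 to 1582 and 1656 to 1694 CPM. In RNA from a whole culture, fewer cells of a type and less RNA per cell cannot be told apart.

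The regions around the transcription starts of 3 of the genes are shown because these have the largest changes among the members for which RefSeq (build GRCr8) gave a promoter, which were 7 of the 10. Each runs from 250 bases before to 50 bases after the start, 5′ to 3′ on the gene's own strand. Thbs1 lies at chr3:125510000-125510299 on the plus strand, Ccdc80 at chr11:69224795-69225094 on the minus strand and Comp at chr16:19089499-19089798 on the minus strand. Capitals mark matches, on either strand, to the motifs searched.
Thbs1: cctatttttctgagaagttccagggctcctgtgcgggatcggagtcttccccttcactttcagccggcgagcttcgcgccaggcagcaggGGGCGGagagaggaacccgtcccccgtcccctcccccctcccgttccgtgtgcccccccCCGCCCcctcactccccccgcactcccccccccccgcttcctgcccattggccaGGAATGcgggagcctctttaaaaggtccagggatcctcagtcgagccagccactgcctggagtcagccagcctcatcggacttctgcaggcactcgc
Ccdc80: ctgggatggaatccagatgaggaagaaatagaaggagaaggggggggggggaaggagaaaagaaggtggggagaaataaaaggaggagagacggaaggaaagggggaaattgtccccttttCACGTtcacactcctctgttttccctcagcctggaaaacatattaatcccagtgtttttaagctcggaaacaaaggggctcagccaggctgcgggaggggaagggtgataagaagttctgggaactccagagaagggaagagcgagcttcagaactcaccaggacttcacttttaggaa
Comp: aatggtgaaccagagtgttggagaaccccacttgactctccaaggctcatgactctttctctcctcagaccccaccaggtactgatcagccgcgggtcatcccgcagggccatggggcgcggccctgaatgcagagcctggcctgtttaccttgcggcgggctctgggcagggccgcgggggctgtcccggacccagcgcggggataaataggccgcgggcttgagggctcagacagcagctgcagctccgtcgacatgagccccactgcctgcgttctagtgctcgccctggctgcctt
The motifs were GGAATG, the core of TEAD sites, TGANTCA (AP-1), TATAAA (the TATA box), GGGCGG (the GC box), ACGTG (the core of hypoxia response elements) and the CArG box of serum response factor. No match overlapped another. In Thbs1 the capitals are a TEAD core starting 47 bases before the start and GC boxes starting 160 and 101 bases before it, and in Ccdc80 a hypoxia core on the opposite strand, 129 bases before the start. Comp held none of the 6. Over the 7 promoters, the TEAD core was found in Thbs1 and Sparc, against 14.2% of all 33469 promoters of that length, and TATAAA in Tnc and Postn, against 14.2%. The GC box was in Thbs1, Thbs3 and Tnc (33.1% of all), and the hypoxia core in Ccdc80 (19.2% of all). AP-1 and CArG matches were in none of the 7, and in 7.33% and 1.64% of all promoters. A match describes letters in this window and is not a measured binding site.

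Thbs1 encodes thrombospondin-1, a trimeric protein that can activate latent TGF-beta and signals through CD36 and CD47. It stood at 22881, 22509 and 22877 CPM in CK 1, 2 and 3 and at 1320, 1273 and 1259 CPM in CYSP 1, 2 and 3. Every CYSP sample was therefore far below every CK sample, and samples of a group lay close together. The log2 fold change was -4.15 (SE 0.022, edgeR adjusted p = 3.48e-97), larger in size than that of 96.2% of the tested genes. Thbs1 took 2.34 ± 0.0195% of all counts in CK and 0.125 ± 0.0026% in CYSP.

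Thbs2 encodes thrombospondin-2, a closely related trimer that affects collagen fibril assembly. It was measured at 4874, 4954 and 4719 CPM in CK and at 3869, 3829 and 3818 CPM in CYSP. The groups did not overlap, but the difference was small, with a log2 fold change of -0.34 (SE 0.021, edgeR adjusted p = 1.6e-24). Of the tested genes, 34.3% had a smaller change. This call was lost when the coefficient of variation was assumed to be 0.2 (adjusted p = 0.24) or 0.4 (adjusted p = 0.73) in place of the small value estimated from these samples.

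The balance within the trimeric pair turned over. FPKM, which unlike CPM takes gene length into account, was 4165 ± 34.8 for Thbs1 and 871 ± 22 for Thbs2 in CK, and 222 ± 4.65 and 651 ± 2.32 in CYSP. The Thbs1 to Thbs2 ratio of FPKM was 4.78 in CK and 0.341 in CYSP, and in each CK sample Thbs1 was the higher while in each CYSP sample Thbs2 was. On the log2 scale the ratio fell by 3.81 (exact two-sided permutation p = 0.1, adjusted p = 0.1 over 3 ratios), where 0.1 is the smallest p that 3 samples against 3 can give.

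Thbs3 and Comp form pentamers and lack the TGF-beta-activating region of Thbs1. Thbs3, known from skeletal tissue, stood at 37.4, 33.2 and 35.7 CPM in CK and at 33.7, 34.3 and 36 CPM in CYSP, so the groups overlapped. Its log2 fold change was -0.03 (SE 0.071, edgeR adjusted p = 0.68), and the 95% interval ran from -0.17 to 0.11. Changes within that interval could not be told from none.

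Comp, cartilage oligomeric matrix protein, is a collagen-binding protein of cartilage and tendon. It had 7, 2 and 2 counts in CK 1, 2 and 3 and 133, 174 and 119 in CYSP 1, 2 and 3. All CYSP samples were above all CK samples, in which the gene was close to the limit of detection. CPM was 0.395, 0.126 and 0.121 in CK and 8.08, 11.8 and 8.12 in CYSP. The pooled counts, 11 against 426, gave a ratio of 42.4, with a 95% Clopper-Pearson counting interval of 23.4 to 85.5 that covers counting error only. Comp passed the count filter only through CYSP, so its p (edgeR adjusted p = 9.66e-27) adds no support for a difference. The fitted log2 fold change was 5.36 (SE 0.31), and 6.15 without CK replicate 1. On the log2(FPKM + 1) scale, which understates the change of low genes, it was 2.11, and with a pseudocount of 0.1 it was 4.36. The level reached in CYSP, 3.76 ± 0.865 FPKM, was still below that of Thbs3 (10.6 ± 0.397 FPKM). The Comp to Thbs3 ratio of FPKM was 0.00679 in CK and 0.348 in CYSP (log2 difference 5.68, exact two-sided permutation p = 0.1, adjusted p = 0.1, the smallest possible).

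The other markers of cartilage and tendon did not move with Comp. Among all tested genes 37.8% were called lower. Of 7 listed, 5 were tested and all 5 fell: Acan, the cartilage proteoglycan aggrecan, went from 631 ± 27.6 to 1.17 ± 0.419 CPM, and Sox9, a transcription factor of cartilage cells, from 30.1 ± 2.71 to 1.34 ± 0.48 CPM. The summed level of this list was 674 to 723 CPM in CK and 3.48 to 5.68 CPM in CYSP. At least Tnmd of this list, with 263 counts in all of CK and 11 in all of CYSP, passed the count filter only through CK. Col2a1 and Matn1, which define cartilage, had at most 6 and 3 counts in a sample.

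Tnc encodes tenascin-C, a large hexameric glycoprotein that interferes with attachment to fibronectin. It stood at 2008, 2125 and 1978 CPM in CK and at 419, 413 and 419 CPM in CYSP. Each CYSP sample was below each CK sample, by a log2 fold change of -2.29 (SE 0.027, edgeR adjusted p = 1.78e-73), or 4.89-fold. Postn encodes periostin, which binds tenascin-C, fibronectin and type I collagen. It stood at 5131, 5388 and 5031 CPM in CK and at 2018, 2050 and 2034 CPM in CYSP. No CYSP sample reached the level of any CK sample, and the log2 fold change was -1.35 (SE 0.023, edgeR adjusted p = 1.94e-62). Whether Tnc and Postn changed by different amounts was not tested.

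Sparc encodes SPARC, also called osteonectin, a calcium- and collagen-binding protein. Its CPM was 7570, 7718 and 7745 in CK and 4194, 4181 and 4208 in CYSP. The groups did not overlap, and the fall was 1.83-fold (log2 fold change -0.87, SE 0.02, edgeR adjusted p = 2.44e-52). With an assumed coefficient of variation of 0.4 this call was lost (adjusted p = 0.21). Despite the fall, Sparc was the second most abundant of the 10 genes per length in both groups, with 3918 ± 50.8 FPKM in CK and 2020 ± 10.1 in CYSP.

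Fn1 encodes fibronectin, which cells assemble into fibrils through integrins and on which other matrix proteins are laid down. Besides the scarce Comp, it was the only member to rise. It stood at 18676, 18489 and 18274 CPM in CK and at 52729, 50825 and 51129 CPM in CYSP. All 3 CYSP samples exceeded all 3 CK samples, with a log2 fold change of 1.48 (SE 0.018, edgeR adjusted p = 2.91e-72). Fn1 alone took 1.9 ± 0.0204% of all counts in CK and 5.01 ± 0.076% in CYSP, and its summed counts were the second highest of all genes in the table. The table gives 1 value per gene, so splice forms of Fn1 and Tnc were not analysed here.

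Tenascin-C and fibronectin moved apart. The Tnc to Fn1 ratio of FPKM was 0.135 in CK and 0.00959 in CYSP, a log2 difference of -3.82 (exact two-sided permutation p = 0.1, adjusted p = 0.1, the smallest possible). The 6 samples fell into separate ranges, with log2 ratios from -2.93 to -2.82 in CK and from -6.73 to -6.68 in CYSP.

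Eln encodes elastin, the core of elastic fibres, and was scarce throughout. It had 43, 23 and 15 counts in CK 1, 2 and 3 and 0, 3 and 0 in CYSP 1, 2 and 3. The groups did not overlap, and the 3 counts of the CYSP group all came from CYSP 2. The pooled ratio was 24.7 in favour of CK, with a 95% counting interval of 8.15 to 122. Eln passed the count filter only through CK, so its p (edgeR adjusted p = 1.45e-08) adds no support for a difference. The fitted log2 fold change was -4.46 (SE 0.67), and -3.87 without CYSP replicate 1. It was -7.71 without CYSP replicate 2, when no count is left in CYSP and the fitted value is no bound.

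Ccdc80 encodes a secreted protein that binds matrix and is abundant in fat and connective tissue. It had the largest fall of the 10 genes by fitted value. Its CPM was 9192, 8780 and 9358 in CK 1, 2 and 3 and 221, 217 and 215 in CYSP 1, 2 and 3. No sample came near the other group. The log2 fold change was -5.39 (SE 0.027, edgeR adjusted p = 3.05e-99), larger in size than that of 97.8% of the tested genes. Beside it, 2 of the 3 tested adipocyte markers rose and none fell, where 38.2% of all tested genes were called higher. Of these, Adipoq passed the count filter only through CYSP, so its call adds no support for a difference. Lpl, lipoprotein lipase, went from 58.4 ± 1.93 to 91.7 ± 3.05 CPM. Adipoq, the fat-cell hormone adiponectin, went from 0.199 ± 0.253 to 519 ± 13.2 CPM, Plin1, a lipid droplet protein, had at most 4 counts in a sample, Cidec had none, and Pparg, the regulator of fat-cell formation, did not pass the test (1.69 ± 0.0025 and 1.62 ± 0.618 CPM).

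**Figure D2:**
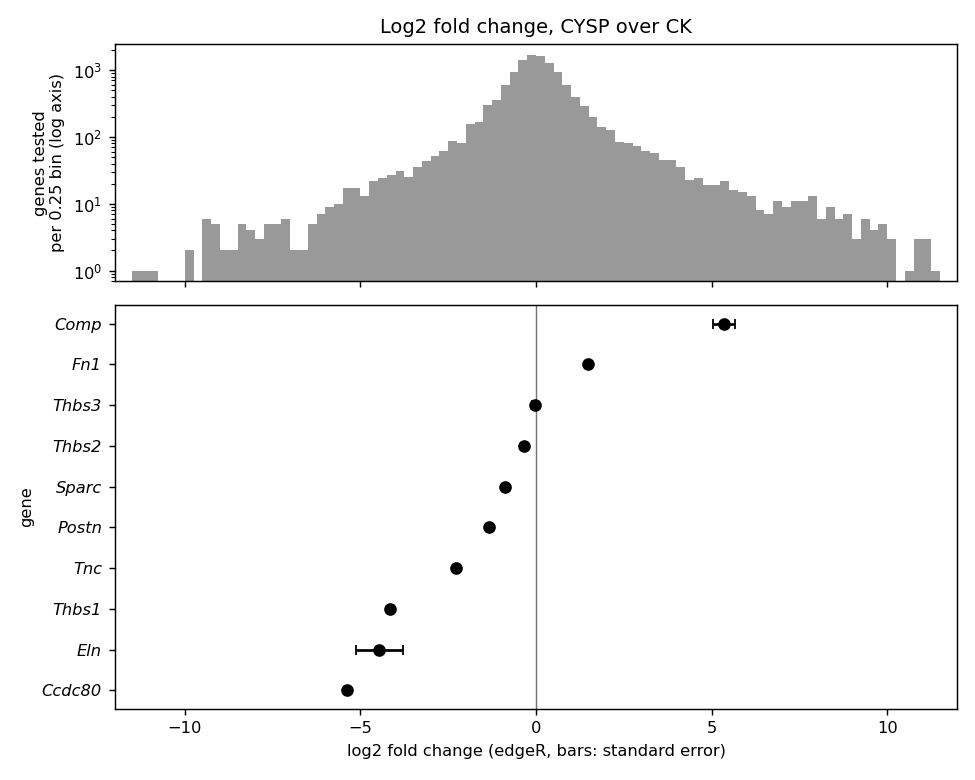
The upper panel counts the 12623 tested genes in bins of log2 fold change (log axis), and the lower panel shows the edgeR log2 fold change of each of the 10 genes with its standard error, which is smaller than the point for all but Comp and Eln. The 10 genes run from -5.39 for Ccdc80 to 5.36 for Comp, with Thbs3 at -0.03.

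The order of the genes by FPKM differed between the groups. In CK it ran from Thbs1 through Sparc, Ccdc80, Fn1, Postn, Thbs2, Tnc, Thbs3 and Eln to Comp, and in CYSP from Fn1 through Sparc, Thbs2, Postn, Thbs1, Ccdc80, Tnc, Thbs3 and Comp to Eln. The sample ranges of neighbours in this order did not overlap in either group. The closest neighbours were Ccdc80 and Tnc in CYSP, at 62.8 ± 0.713 and 59.6 ± 0.612 FPKM. Together the 10 genes took 7.21 ± 0.0169% of all counts in CK and 6.18 ± 0.0751% in CYSP. Of their summed FPKM, Thbs1 held 25.9 ± 0.207% in CK and 2.25 ± 0.0308% in CYSP, Ccdc80 17.3 ± 0.54% and 0.638 ± 0.0044%, and Fn1 14.7 ± 0.174% and 63.1 ± 0.419%. Sparc held 24.4 ± 0.299% and 20.5 ± 0.268%. Fn1 thus took the largest share in every CYSP sample, and Thbs1 in every CK sample.

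**Figure D3:**
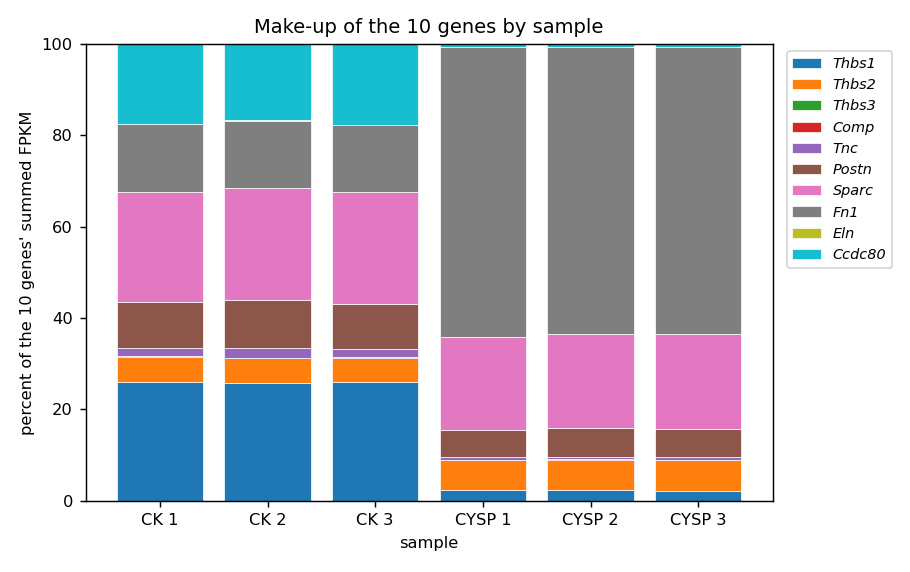
Stacked bars give, for each of the 6 samples, the percent of the 10 genes' summed FPKM held by each gene. Fn1 fills 62.8 to 63.6% of each CYSP bar and 14.5 to 14.8% of each CK bar, where Thbs1, Sparc and Ccdc80 fill most of the rest.

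In the authors' deposited table the log2 fold changes, taken from mean FPKM, have the same signs for all 10 genes. The authors' deposited table gives -4.23 for Thbs1, -0.42 for Thbs2, 1.4 for Fn1 and -5.47 for Ccdc80. In the deposited annotation 9 of the 10 genes, all but Postn, carry the term extracellular region, against 4.37% of the tested genes. Heparin binding is given for 7 (Ccdc80, Comp, Fn1, Postn and the other 3 thrombospondins), against 0.689%, and the pathway ECM-receptor interaction for 6 (Comp, Fn1, Tnc and the other 3 thrombospondins), against 0.515%. The genes were picked as a family, so these shared terms follow from the choice. They differ in direction within each term: Fn1 and Comp rose while Thbs1 fell.

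The close relatives did not all follow the members. Every tested gene of the 6 related lists was called, against 76.1% of all tested genes (38.2% higher, 37.8% lower). Rises and falls in these lists are therefore signs at a threshold that most genes pass, and no list was tested as a set. Thbs4, the remaining thrombospondin, had 16 counts in all of CK and 1 in all of CYSP, under the filter. Both tested tenascins besides Tnc rose. Tnn, tenascin-N, a tenascin of bone and its surface, rose from 2697 ± 33 to 8398 ± 167 CPM, a log2 fold change of 1.64 (SE 0.021, edgeR adjusted p = 2.79e-70). Tnr, tenascin-R, a tenascin of the nervous system, had 5 counts in all of CK and 557 in all of CYSP. Tnr passed the count filter only through CYSP, so its call adds no support for a difference. Tnr falls outside the rule for naming genes and was named after its values were seen. Of the SPARC relatives and Tgfbi, a periostin relative, 5 of 8 were tested, with 3 lower and 2 higher, and their median log2 fold change was -2.12. Tgfbi fell from 94.2 ± 7.76 to 10.1 ± 0.661 CPM and Fstl1, a secreted follistatin-like protein, from 2815 ± 27.7 to 647 ± 6.29 CPM. Smoc1 had the largest change of the 5, with 790 counts in all of CK and 4 in all of CYSP. Smoc1 passed the count filter only through CK, so its call adds no support for a difference. Like Tnr, Smoc1 falls outside the naming rule and was named after its values were seen. Smoc2 rose slightly, from 102 ± 3.2 to 114 ± 5.24 CPM (log2 fold change 0.16). This call was lost with library size only (log2 fold change 0.08), on both FPKM scales (0.04) and with an assumed coefficient of variation of 0.2 or 0.4.

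Proteins that assemble elastic fibres and bind fibronectin were split. Of 17 tested genes 10 fell and 7 rose, against 37.8% and 38.2% of all tested genes. The median log2 fold change was -0.6. Fbln2, a fibulin that binds fibronectin, stood at 1357 ± 67.5 CPM in CK and 21.4 ± 2.01 in CYSP. Fbln5, a fibulin needed for elastic fibre assembly, stood at 290 ± 10.3 CPM in CK and 16.1 ± 1.81 in CYSP. Fbn2, the microfibril protein fibrillin-2, fell from 105 ± 2.96 to 2.76 ± 0.876 CPM. Emilin2, an elastin-associated glycoprotein, rose from 10 ± 0.712 to 39.9 ± 4.71 CPM. The largest rise of the list was that of Efemp1, with 0 counts in all of CK and 786 in all of CYSP. This gene passed the count filter only through CYSP, so its call adds no support for a difference. Efemp1 falls outside the naming rule and was named after its values were seen.

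Of 12 tested basement membrane genes 9 rose and 3 fell, where 38.2% of all tested genes were called higher and 37.8% lower. The median log2 fold change was 1.13. Lama2 and Lama5, laminin alpha chains, rose, Lama2 from 2.99 ± 0.554 to 68.6 ± 1.63 CPM and Lama5 from 4.74 ± 0.804 to 98.9 ± 1.96 CPM, and Lamb2, a laminin beta chain, fell from 272 ± 6.53 to 72.2 ± 1.16 CPM. Of 14 tested other adhesive glycoproteins 10 fell and 4 rose, with a median of -1.13. Npnt, the integrin ligand nephronectin, fell from 58.4 ± 4.18 to 0.71 ± 0.379 CPM and Srpx2, a secreted sushi-repeat protein, from 209 ± 10.3 to 53.3 ± 0.864 CPM. Spp1, osteopontin, rose from 249 ± 5.8 to 1027 ± 19 CPM.

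Receptors for these proteins showed no common direction. Of 16 tested genes 9 rose and 7 fell, against 38.2% and 37.8% of all tested genes. The median log2 fold change was 0.28. Sdc4, the proteoglycan syndecan-4, which binds the heparin-binding region of fibronectin, rose from 95 ± 6.37 to 1073 ± 16 CPM. Lrp1, the endocytic receptor that clears thrombospondins, rose from 1456 ± 24.1 to 5569 ± 230 CPM, and Ptprz1, a receptor phosphatase that binds tenascins, from 2.78 ± 1.28 to 82.8 ± 0.536 CPM. Itga8, an integrin chain that pairs to bind fibronectin and tenascin-C, fell from 49.9 ± 0.282 to 14.4 ± 0.374 CPM. Over all 6 related lists 33 genes rose and 33 fell. These totals, like the counts of each list, include genes that passed the count filter only through the group where they were high. Efemp1, Tnr, Lama1 and Vwf did so through CYSP, and Smoc1 and Mfap4 through CK, among others. For such genes a difference was built into being tested.

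**Figure D4:**
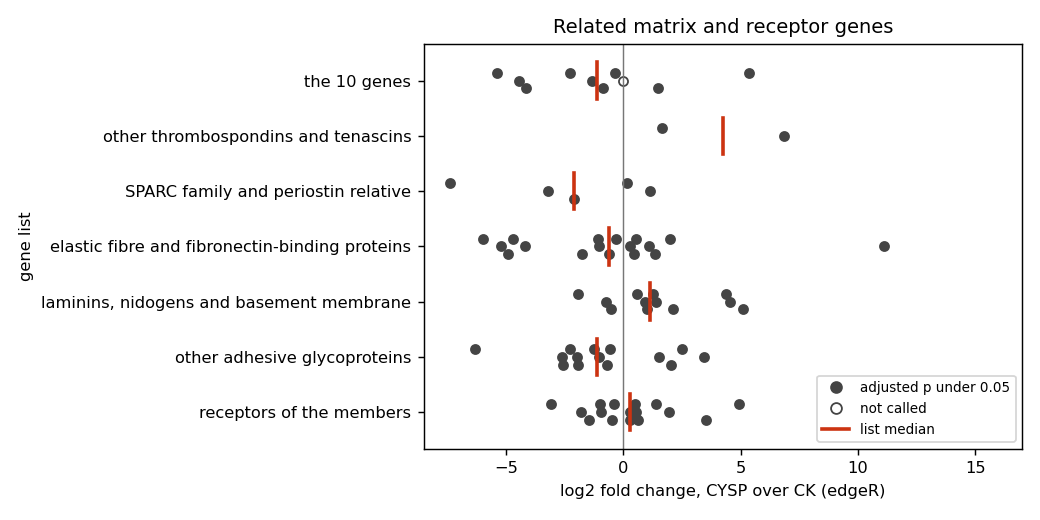
Each point is a tested gene at its edgeR log2 fold change of CYSP over CK, in rows for the 10 genes and the 6 related lists, filled where the adjusted p was under 0.05 and with a red bar at the list median. The medians run from -2.12 for the SPARC relatives to 1.13 for basement membrane genes, leaving aside the 2 tested tenascins.

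Markers of other cell types changed in the same samples, in both directions. Among all tested genes 38.2% were called higher and 37.8% lower. Of 5 smooth muscle and myofibroblast markers 4 fell and Des did not pass the test. The summed level of the list was 7528 to 7740 CPM in CK and 10.1 to 16.6 CPM in CYSP. Of 8 macrophage and leukocyte markers 7 fell and Cd14 did not pass the test, with summed levels of 1672 to 1896 CPM in CK and 500.3 to 507 CPM in CYSP. Of 5 endothelial markers 3 were tested, with 2 higher and 1 lower, and the sums were 1.51 to 2.32 CPM and 2.57 to 4.1 CPM. The risen Kdr (0 counts in all of CK, 58 in all of CYSP) and Vwf (7 and 72) passed the count filter only through CYSP. Tek (77 and 9), which fell, passed it only through CK. For these 3 a difference was built into being tested, so their calls add no support. Of 5 osteoblast markers 4 were tested, with 2 higher and 1 lower (sums of 85.2 to 92.4 and 152 to 157 CPM), and Bglap, osteocalcin, had no count. Of 5 adipocyte markers 3 were tested, with 2 higher (58.7 to 62.9 and 598 to 629 CPM). Of 5 neuronal markers 3 were tested, with 2 higher and 1 lower (12.1 to 13.5 and 84.8 to 90.3 CPM), and Rbfox3, which encodes NeuN, had no count. The adipocyte marker Adipoq and the neuronal marker Snap25 also passed the count filter only through CYSP, with 10 and 1 counts in all of CK. Of the 6 marrow stromal markers 4 rose, Pdgfrb fell and Lepr did not pass the test (1542 to 1582 and 1656 to 1694 CPM). With an assumed coefficient of variation of 0.4, none of the stromal markers was called (adjusted p = 0.052 for Pdgfrb and 0.12 for Cd44), and 1 adipocyte and 1 osteoblast marker were called higher. With the filter of 50 counts in 3 samples no endothelial marker was tested, as none had more than 32 counts in a sample. On the FPKM scales, where only genes with a mean of at least 0.5 FPKM were tested, none of them was called. A missing call there is therefore no sign of an unchanged level. The part of any of these cell types in the values of the members was not tested.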

How the data were processed

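Trizol RNA of 3 CK and 3 CYSP samples was selected for messenger RNA with oligo(dT) beads, per the labels' protocols. The submitters' processing notes name fastp 0.18.0, HISAT2, StringTie 1.3.1 and RSEM, with no roles. For the counting tool, its use of strand, the build and the annotation, the sources used here give nothing. The deposited table holds whole-number read counts, per the file headers. It also holds FPKM per sample and group, made by the authors. The authors' log2 fold change is the ratio of group mean FPKM, and no source used here names the test behind the authors' p-values.

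The test was edgeR 4.0.16's glmQLFTest (R 4.3.3) on the counts, after filterByExpr and TMM scaling, with robust dispersions and Benjamini-Hochberg adjustment, and it kept 12623 genes. A further 6878 had no count and 3590 fell under the filter. The edgeR test gives no standard error, so each SE was derived as the size of the log2 fold change over the square root of the test's F statistic. Intervals of fold changes used these SEs and the test's degrees of freedom, and counting intervals cover counting error only. The members, the 14 gene lists and the tests were chosen with earlier results of these data known. From each list, up to 3 called genes averaging at least 10 CPM and with the largest change, and 1 of the less frequent direction, could be named. Besides these, markers and scarce relatives are given that were named after their values were seen. List symbols absent from the table were not analysed here. Alternatives were other scalings and filters, DESeq2 1.42.0, limma 3.58.1 (voom, and trend on FPKM), leaving out each sample, a block on replicate number, a fold threshold and assumed coefficients of variation.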

Additional observations from a re-analysis of the deposited data

How the results depend on the processing

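The 2 rises and 7 falls among the members were counted again under each scaling, with DESeq2, with limma-voom, without a filter, with each sample left out and with a replicate block. Eln was not tested with the filter of 50 counts in 3 samples or with the FPKM minimum of 0.5, which left 6 falls. With a log2 fold change of at least 1 required, 2 rises and 5 falls were left. The log2 fold change of Thbs3 was 0.0046 without CK replicate 1, and lay between -0.081 and 0.0046 over the 6 samples left out. With an assumed coefficient of variation of 0.2, Thbs2 lost its call (log2 fold change -0.34), and with 0.4 Thbs2 (-0.34) and Sparc (-0.87) did. Over all genes, 3102 were then higher and 2801 lower at 0.2, and 1496 and 1209 at 0.4. The fold threshold left 1917 and 1598. The related lists had 19 rises and 20 falls at 0.4, and 21 rises and 23 falls with the fold threshold. The labels do not say whether same-numbered samples share an origin. Such samples had correlations of deviations between -0.022 and 0.0104, which with 3 samples per group cannot show that none was shared. With the replicate block, 4773 genes were higher and 4712 lower, and the 3 ratios kept their direction (exact p = 0.25, the smallest that 3 pairs give). Adding identifiers of a symbol was not run, since each member has 1. The depth limits statements on Comp in CK and Eln in CYSP, which lie near 3 counts.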
